A study of Homo sapiens with 9 samples.

Results

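The tricarboxylic acid (TCA) cycle, the entry of pyruvate into it and the reactions that fill or drain it were followed through 33 genes, taken from a list of enzymes and regulators that was drawn up with earlier results of these data known. Of these, 30 had a probe with a gene name, out of 18354 genes named on the arrays. The arrays were Illumina bead arrays hybridised with biotin-labelled cRNA. For IDH3A, SDHB and FH no named probe was found, and they were not analysed here. Each gene was represented by its brightest probe, and 28 of the 30 were bright enough to be tested among 10862 genes. PC and PDK4 were not.

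All samples were HeyA8 cells, an established human ovarian cancer line that the labels also spell Hey8A, seeded on day 0 and given fresh medium on day 4, 24 h before collection. Deprived coculture had 3 arrays of cells that shared their wells with cancer-associated fibroblasts on inserts from day 1 and then lost glutamine. Deprived monoculture had 3 arrays of cells kept alone and then without glutamine. Complete monoculture had 3 arrays of cells kept alone in complete medium. Fibroblast coculture with glutamine present was not analysed here. The labels leave unstated whether a group's samples were separate experiments. The p-values set each difference against the spread within groups, estimated partly from all tested genes, and that spread may be technical.

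The TCA cycle joins acetyl-CoA to oxaloacetate and oxidises the citrate formed, passing electrons to the respiratory chain. Acetyl-CoA from glucose reaches it through the pyruvate dehydrogenase complex, which kinases (PDK) switch off and phosphatases (PDP) switch on. Glutamine feeds the cycle at 2-oxoglutarate, after it has been turned into glutamate, and many cultured cancer cells depend on this supply. Pyruvate carboxylase and malic enzymes connect pyruvate with the cycle's acids oxaloacetate and malate, and phosphoenolpyruvate carboxykinase leads carbon out of it.

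Levels are given on the deposited log2-like scale, relative to the other probes of an array, so a change of total RNA per cell could not be seen. The array medians lay between 7.4706 and 7.4731, and arrays of a group correlated at r from 0.9959 to 0.9975 across probes. Values piled up at a floor whose upper edge was near 7.48, and differences that reach it are understated. A fold is 2 raised to the log2 difference and holds as a fold of signal only as far as the scale is a plain log2, which the sources used here do not state. In bulk samples, fewer expressing cells and less RNA per cell cannot be told apart. The keratins KRT8 and KRT18 and the Müllerian marker PAX8 were above the floor on every array, while CDH1 and MUC16 were at it on all 9. Of 12 fibroblast markers, 8 had a mean at the floor in deprived coculture, 10 in deprived monoculture and 8 in complete monoculture. COL1A2, COL3A1, DCN, LUM, PDGFRA, PDGFRB, POSTN and THY1 were among those at the floor in each group. The mean log2 level of the 12 per array was 7.743 to 7.761 in deprived coculture, 7.765 to 7.787 in deprived monoculture and 7.687 to 7.70 in complete monoculture, and ACTA2 was the 1 of them above 8 on every array. ACTA2 was higher in deprived than in complete monoculture (log2 difference 1.54, SE 0.063, adjusted p = 3.99e-14) and lower in coculture than in deprived monoculture (log2 difference -0.60, SE 0.063, adjusted p = 5.04e-07). FAP moved the other way in both (-0.41, SE 0.053, adjusted p = 1.52e-06 and 0.24, SE 0.053, adjusted p = 0.00185). FAP was at the floor on the 3 deprived monoculture arrays, which stand in both differences. All 7 tested epithelial markers fell without glutamine, among them KRT8 (-1.45, SE 0.073, adjusted p = 9.16e-13) and PAX8 (-0.72, SE 0.076, adjusted p = 7.84e-08), where 24.3% of all genes were lower. KRT19, 1 of the 7, was at the floor on 6 arrays. In coculture 3 of the 7, KRT7, KRT8 and PAX8, were higher than in deprived monoculture, where 12.7% of all genes were higher. The part of these markers in the results was not tested.

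Deprived against complete monoculture addressed the effect of 24 h without glutamine on these genes. PCK2, the mitochondrial phosphoenolpyruvate carboxykinase, rose 4.59-fold, while the 3 subunits of succinyl-CoA ligase fell, SUCLG2 by 2.17-fold, SUCLG1 by 1.61-fold and SUCLA2 by 1.55-fold. Citrate synthase, mitochondrial isocitrate dehydrogenase IDH2, DLST, SDHA, SDHD and both malate dehydrogenases also fell, by smaller amounts. IDH3B, PDK2, PDP1 and, by the brighter of its 2 probes, SDHC rose. Of 28 tested genes 19 (67.9%) passed the test, against 54.3% of all genes tested. They were 5 higher (17.9%, against 30.0% of all genes) and 14 lower (against 24.3%). The median log2 difference of the 28 was -0.146, and that of all tested genes was 0.015. When only genes with a mean above 7.98, the 75th percentile over all probes, were tested, 17 of 24 members were called. That was no larger a share than the 4448 of 6190 genes called under that filter. By direction, 4 of the 17 were higher and 13 were lower, while the median log2 difference of the 6190 genes was 0.051. The shares of all genes by direction were not taken under that filter.

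When a fold of at least 1.5 was also required, PCK2 was the 1 higher gene, against 6.57% of all genes, and the 3 succinyl-CoA ligase genes were the lower ones, against 6.31%. Every other called difference was between 1.1-fold and 1.4-fold.

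The coculture comparison asked what the fibroblasts changed in cells without glutamine. SUCLG2 was 1.45-fold higher in coculture, and CS, SUCLG1 and ME3, the mitochondrial NADP-dependent malic enzyme, were higher by 1.15-fold to 1.19-fold. PDP1, the phosphatase that activates pyruvate dehydrogenase, was 1.39-fold lower. IDH1, IDH3B, OGDH, SDHA and, by the brighter of its 2 probes, SDHC were 1.13-fold to 1.19-fold lower. The dimmer SDHC probe was not called (log2 difference 0.04, SE 0.055, adjusted p = 0.774 over all named probes). PCK2 lay at 11.13 ± 0.01 in deprived coculture against 11.24 ± 0.08 in deprived monoculture (SD, n = 3 each), a difference that did not pass the test (log2 difference -0.11, SE 0.067, adjusted p = 0.259). Of 28 tested genes 10 (35.7%) were called, against 27.8% of all genes, 4 higher (14.3%, against 12.7%) and 6 lower (21.4%, against 15.1%). The median log2 difference was 0.01, and -0.01 over all tested genes. Of the 28, 0 passed the added condition of a fold of at least 1.5 in limma's test, with an adjusted or an unadjusted p under 0.05 (0 genes for each), against 1.76% of all genes higher and 0.829% lower. The unadjusted p was under 0.05 for 4 higher and 8 lower members. These shares lie near those of all genes. The deprived monoculture arrays stand in both this and the preceding comparison, so the 2 sets of differences share their error.

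Deprived coculture was also set against complete monoculture, groups that differ in both medium and fibroblasts. PCK2 was 4.26-fold higher (log2 difference 2.09, SE 0.067, adjusted p = 3.72e-15). The genes of succinyl-CoA ligase were lower, SUCLG2 by 1.5-fold, SUCLA2 by 1.44-fold and SUCLG1 by 1.39-fold, and so were CS, IDH1, IDH2, OGDH, DLST, SDHA, SDHD, MDH1, PDHA1 and DLAT. That made 14 of 28 (against 43.0% of all genes), of which 1 was higher (3.57%, against 22.3%) and 13 were lower (46.4%, against 20.7%). At a fold of at least 1.5, PCK2 was again the 1 higher gene (2.87% of all genes) and 0 members were lower (3.54%), also at an unadjusted p under 0.05. SUCLG2 lay just short of that fold, with a log2 difference of -0.583. The median log2 difference was -0.154, and 0.008 over all tested genes. With the filter at 7.98, 14 of 24 members were called, no larger a share than the 3777 of 6190 genes called. By direction, 1 of the 14 was higher and 13 were lower, while the median log2 difference of the 6190 genes was 0.026.

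**Figure D1:**
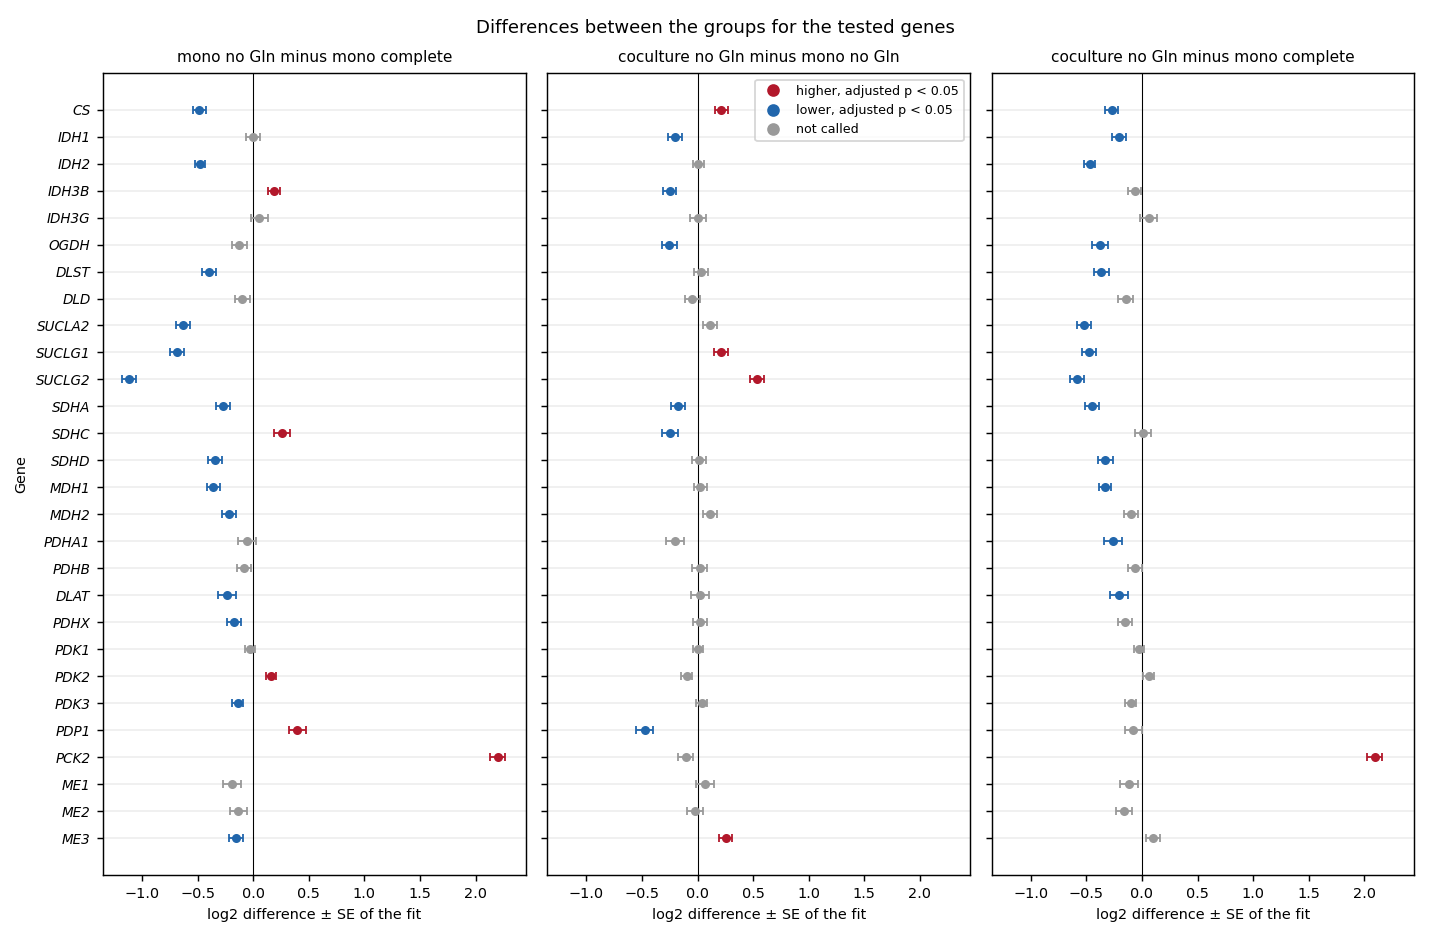
Log2 difference of each tested gene with the SE of the fit in the 3 comparisons, with called genes in red (higher) or blue (lower) and the rest in grey. PCK2 stands alone on the right where cells without glutamine are set against complete medium, at 2.20 and 2.09, and SUCLG2 is the lowest gene in both, at -1.12 and -0.58.

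PCK2 turns oxaloacetate into phosphoenolpyruvate inside the mitochondrion, and it is a known target of the amino acid stress factor ATF4. On single arrays it read 11.12, 11.14 and 11.14 in deprived coculture, 11.33, 11.20 and 11.19 in deprived monoculture and 8.95, 9.15 and 9.02 in complete monoculture. The 6 arrays without glutamine lay above the 3 with it, with no overlap, whether or not fibroblasts were present. The rise in monoculture had log2 difference 2.20, SE 0.067, adjusted p = 2.62e-16. Its second, dimmer probe read 8.27, 8.22 and 8.38 in deprived coculture, 8.42, 8.27 and 8.24 in deprived monoculture and 7.51, 7.56 and 7.53 in complete monoculture. That probe, close to the floor in complete medium, also rose (log2 difference 0.78, SE 0.058, adjusted p = 2.98e-11 over all named probes) with all 6 arrays without glutamine above the 3 with it.

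The PCK2 start region is shown because the gene had the steepest change of the 28, beside those of the 3 ligase genes that fell together. Each sequence holds the 250 bases before the gene start as RefSeq gives it on GRCh38.p14, 5′ to 3′ on the gene's strand, with motif matches in capitals. Both strands were searched for the CARE element bound by C/EBP and ATF factors (TGATGNAA), the CRE (TGACGTCA), the NRF1 core (CGCATGCG), the GABP or ETS site (CCGGAAGT), the CCAAT box bound by NF-Y (CCAAT) and the GC box bound by SP1 (GGGCGG).

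PCK2 (chr14:24094061-24094310, plus strand): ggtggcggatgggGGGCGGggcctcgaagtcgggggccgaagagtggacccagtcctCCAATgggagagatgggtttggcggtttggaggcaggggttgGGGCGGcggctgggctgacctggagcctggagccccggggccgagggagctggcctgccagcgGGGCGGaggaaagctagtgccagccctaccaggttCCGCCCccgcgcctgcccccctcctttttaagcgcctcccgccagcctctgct

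SUCLG2 (chr3:67654613-67654862, minus strand): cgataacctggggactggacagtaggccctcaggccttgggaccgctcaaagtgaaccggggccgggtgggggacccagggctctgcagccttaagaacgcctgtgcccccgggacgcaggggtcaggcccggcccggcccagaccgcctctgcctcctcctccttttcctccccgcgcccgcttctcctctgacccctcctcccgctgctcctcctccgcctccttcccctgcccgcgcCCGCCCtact

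SUCLG1 (chr2:84459281-84459530, minus strand): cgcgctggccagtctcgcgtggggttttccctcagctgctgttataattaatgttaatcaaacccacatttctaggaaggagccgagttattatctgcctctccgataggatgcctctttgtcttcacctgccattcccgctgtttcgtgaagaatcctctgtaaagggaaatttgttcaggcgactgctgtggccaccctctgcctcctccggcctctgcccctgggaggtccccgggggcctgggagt

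SUCLA2 (chr13:48001274-48001523, minus strand): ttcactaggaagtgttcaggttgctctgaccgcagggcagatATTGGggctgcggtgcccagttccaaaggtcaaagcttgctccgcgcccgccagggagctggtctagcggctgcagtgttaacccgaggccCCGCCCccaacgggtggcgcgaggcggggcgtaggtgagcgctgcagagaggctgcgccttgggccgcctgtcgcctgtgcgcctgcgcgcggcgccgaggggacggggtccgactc

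The PCK2 window held 4 GC boxes and 1 CCAAT box, the SUCLG2 window 1 GC box, the SUCLA2 window 1 GC box and 1 CCAAT box, and the SUCLG1 window 0 matches. RefSeq windows were found for 30 of the 33 listed genes, among them the 3 without a probe but not OGDH, SDHC or PDP1. Over 27305 genes, 1 start each, 42.3% held a GC box and 33.0% a CCAAT box in this window, against 17 and 15 of the 30. The CARE letters stood in 3.19% and the CRE in 1.77% of all windows, and in 0 of the 30. The GABP letters stood in 3.64% of all windows and in 4 of the 30 (DLST, IDH3B, MDH2 and SDHD), and the NRF1 core in 1.86% and in 1 of the 30 (SDHD). A match is a description of letters, and a window without one says only that these letters are not in it.

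**Figure D2:**
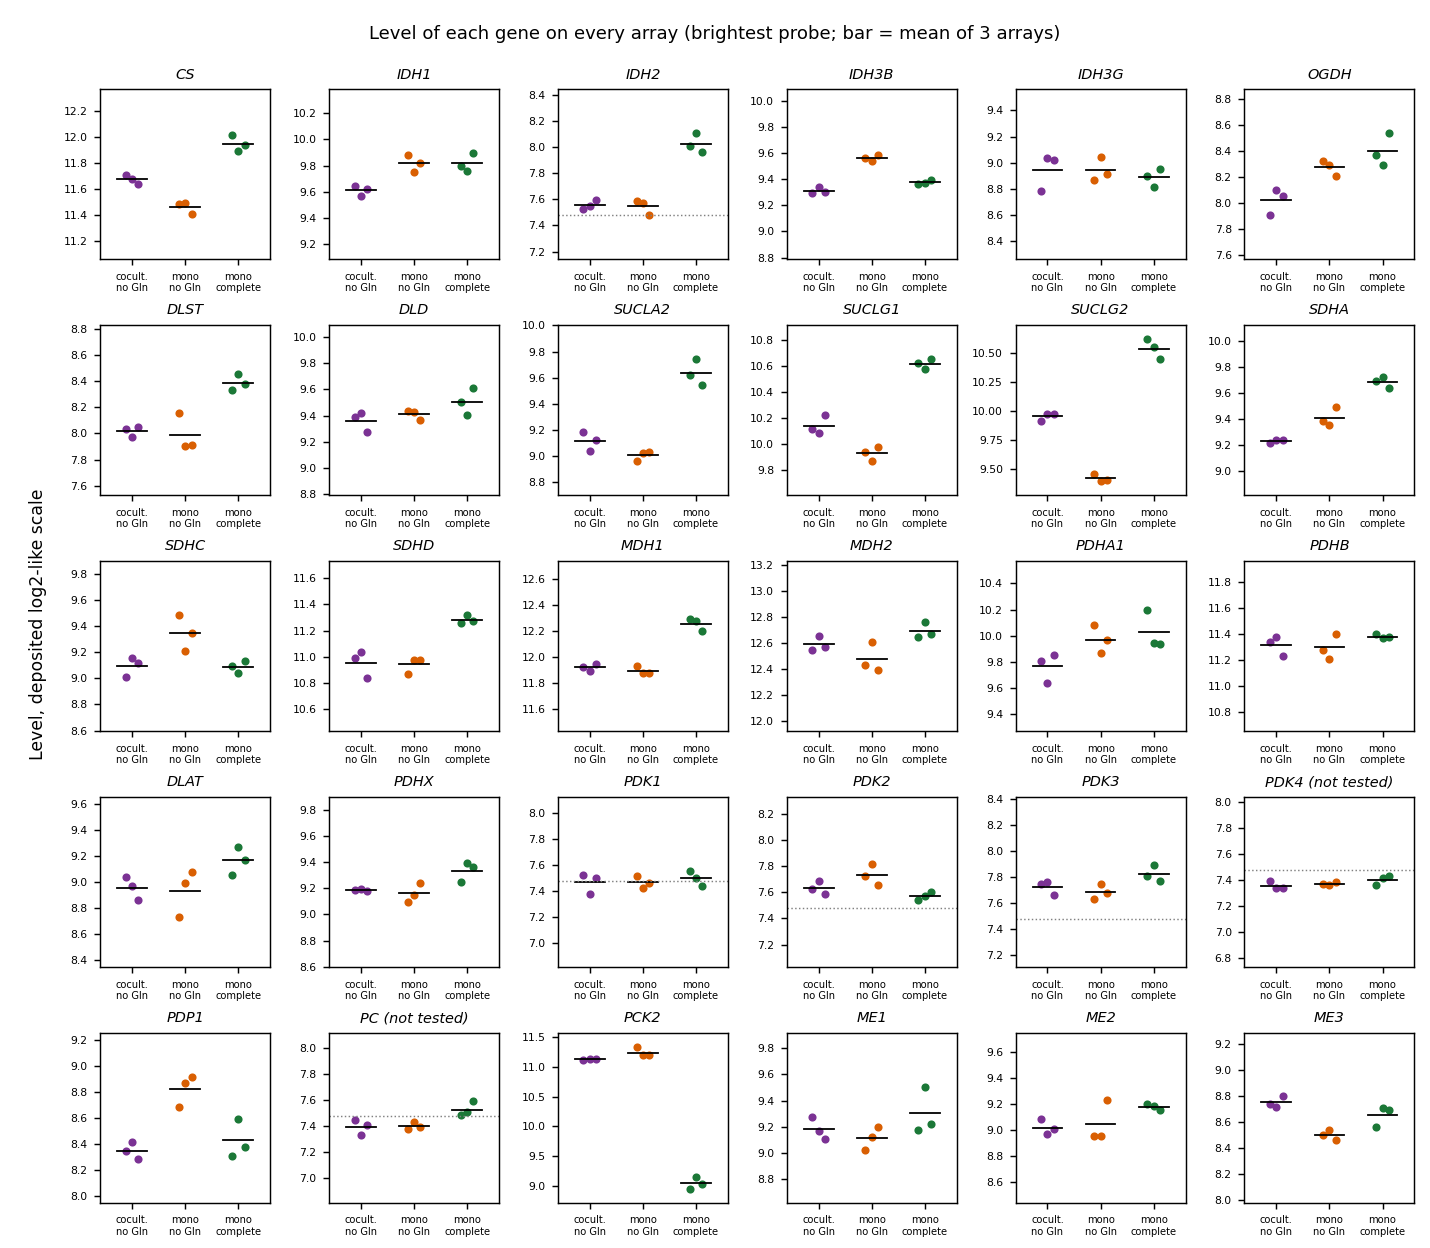
Level of the 30 genes with a named probe on every array, on the deposited log2-like scale, with 3 points for each group, bars at the group means, and the floor's upper edge dotted where it falls inside a panel. The axes differ between panels. The PCK2 panel shows 6 arrays near 11 and 3 near 9, and the SUCLG2 panel shows 3 separate steps.

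Succinyl-CoA ligase turns succinyl-CoA into succinate and makes a nucleoside triphosphate, GTP with the beta subunit SUCLG2 and ATP with the beta subunit SUCLA2, both paired with the alpha subunit SUCLG1. SUCLG2 read 9.91, 9.97 and 9.97 in deprived coculture, 9.46, 9.39 and 9.40 in deprived monoculture and 10.62, 10.55 and 10.44 in complete monoculture. The 3 groups did not overlap, with coculture in the middle. Its fall without glutamine had a log2 difference -1.12, SE 0.063, adjusted p = 6.72e-12, coculture against deprived monoculture had a log2 difference 0.54, SE 0.063, adjusted p = 2.07e-06, and coculture against complete monoculture had a log2 difference -0.58, SE 0.063, adjusted p = 2.61e-07. The alpha subunit followed the same order at smaller steps. SUCLG1 read 10.11, 10.08 and 10.22 in deprived coculture, 9.94, 9.87 and 9.98 in deprived monoculture and 10.62, 10.58 and 10.65 in complete monoculture. It was lower without glutamine (log2 difference -0.69, SE 0.063, adjusted p = 1.25e-08) and slightly higher with fibroblasts (log2 difference 0.21, SE 0.063, adjusted p = 0.0183). That second call did not survive leaving out deprived monoculture array 2 (adjusted p = 0.0842) or coculture array 3 (0.1). SUCLA2, of the ATP-forming enzyme, read 9.18, 9.04 and 9.12 in deprived coculture, 8.96, 9.02 and 9.03 in deprived monoculture and 9.62, 9.74 and 9.55 in complete monoculture. It was lower in both deprived groups than in complete medium (-0.63, SE 0.066, adjusted p = 7.26e-08 for monoculture and -0.52, SE 0.066, adjusted p = 1.99e-06 for coculture). Between the deprived groups its difference did not pass the test (log2 difference 0.11, SE 0.066, adjusted p = 0.236).

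Citrate synthase, CS, makes citrate from acetyl-CoA and oxaloacetate and is the first enzyme of the cycle. It read 11.71, 11.68 and 11.64 in deprived coculture, 11.49, 11.49 and 11.41 in deprived monoculture and 12.02, 11.89 and 11.94 in complete monoculture. The groups were separate and coculture lay between the monocultures. CS fell without glutamine (log2 difference -0.48, SE 0.060, adjusted p = 7.3e-07), was higher in coculture than in deprived monoculture (log2 difference 0.21, SE 0.060, adjusted p = 0.0112) and remained lower in coculture than in complete medium (log2 difference -0.27, SE 0.060, adjusted p = 0.00084). The isocitrate dehydrogenases make 2-oxoglutarate, with NADP in the cytosol (IDH1) and the mitochondrion (IDH2) and with NAD in the multi-subunit IDH3. IDH2 read 7.52, 7.55 and 7.59 in deprived coculture, 7.59, 7.57 and 7.48 in deprived monoculture and 8.01, 8.11 and 7.96 in complete monoculture. Both deprived groups lay close to the floor and well apart from complete medium (-0.48, SE 0.049, adjusted p = 5.72e-08 in monoculture, -0.47, SE 0.049, adjusted p = 1.47e-07 in coculture), and the deprived groups overlapped (log2 difference 0.01, SE 0.049, adjusted p = 0.944). IDH1 read 9.64, 9.57 and 9.62 in deprived coculture, 9.88, 9.75 and 9.82 in deprived monoculture and 9.79, 9.76 and 9.90 in complete monoculture. The monocultures overlapped (log2 difference 0.001, SE 0.064, adjusted p = 0.992), and coculture lay below both (-0.20, SE 0.064, adjusted p = 0.0206 against deprived and -0.20, SE 0.064, adjusted p = 0.0135 against complete monoculture). The first of these calls was lost without coculture array 2 (adjusted p = 0.0885) or deprived monoculture array 1 (0.08), the second without coculture array 2 (0.0621) or complete monoculture array 3 (0.0747).

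IDH3B, a regulatory subunit of the NAD-dependent enzyme, read 9.29, 9.34 and 9.30 in deprived coculture, 9.56, 9.54 and 9.58 in deprived monoculture and 9.36, 9.37 and 9.40 in complete monoculture. It was the 1 isocitrate dehydrogenase gene that rose without glutamine (log2 difference 0.19, SE 0.058, adjusted p = 0.00934), it was lower in coculture than in deprived monoculture (log2 difference -0.25, SE 0.058, adjusted p = 0.00245), and coculture and complete medium differed by -0.07 (SE 0.058, adjusted p = 0.402). IDH3G, the gamma subunit, ranged from 8.78 to 9.04 with all groups overlapping, and its differences did not pass the test for deprivation, coculture or coculture against complete medium (adjusted p = 0.558, 0.984 and 0.568).

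The 2-oxoglutarate dehydrogenase complex, which receives the carbon of glutamine, is built from OGDH, DLST and DLD. The succinyltransferase DLST read 8.03, 7.97 and 8.05 in deprived coculture, 8.16, 7.90 and 7.91 in deprived monoculture and 8.33, 8.46 and 8.38 in complete monoculture. It was lower in both deprived groups than in complete medium (-0.40, SE 0.066, adjusted p = 3.49e-05 in monoculture, -0.37, SE 0.066, adjusted p = 0.000133 in coculture). OGDH, the first enzyme of the complex, read 7.91, 8.10 and 8.05 in deprived coculture, 8.32, 8.29 and 8.21 in deprived monoculture and 8.37, 8.29 and 8.54 in complete monoculture. Its monocultures overlapped (log2 difference -0.12, SE 0.068, adjusted p = 0.137), and coculture lay below both (-0.25, SE 0.068, adjusted p = 0.00848 against deprived and -0.38, SE 0.068, adjusted p = 0.000136 against complete monoculture). The call between the deprived groups was lost without coculture array 1 (adjusted p = 0.0601) and with the mean of the gene's 3 probes (0.0574), of which the other two lay at the floor. DLD, the lipoamide dehydrogenase that this complex shares with pyruvate dehydrogenase, ranged from 9.27 to 9.61, and no comparison was called (adjusted p = 0.242 for deprivation, 0.647 for coculture and 0.0878 for coculture against complete medium). Without complete monoculture array 2 the last became 0.0378.

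Succinate dehydrogenase oxidises succinate and is also complex II of the respiratory chain. Its catalytic subunit SDHA read 9.21, 9.24 and 9.24 in deprived coculture, 9.38, 9.35 and 9.49 in deprived monoculture and 9.69, 9.72 and 9.63 in complete monoculture. The 3 groups did not overlap, and coculture was the lowest. SDHA fell without glutamine (log2 difference -0.27, SE 0.061, adjusted p = 0.000737) and was lower in coculture than in complete medium (log2 difference -0.45, SE 0.061, adjusted p = 5.05e-06). Its further step down in coculture against deprived monoculture was small (log2 difference -0.18, SE 0.061, adjusted p = 0.0372). That call was lost without any 1 of the 3 coculture arrays (adjusted p = 0.0964, 0.0845 and 0.0782), without deprived monoculture array 3 (0.144), with the replicate number as a block (0.0513) and with the mean of both probes (0.302). It was also lost with no filter on dim genes (0.065) and with only the 6 arrays of the comparison (0.0505). SDHD, a membrane anchor, read 10.99, 11.04 and 10.84 in deprived coculture, 10.87, 10.97 and 10.98 in deprived monoculture and 11.26, 11.32 and 11.28 in complete monoculture. It was lower in both deprived groups (-0.34, SE 0.065, adjusted p = 0.000152 in monoculture, -0.33, SE 0.065, adjusted p = 0.000354 in coculture).

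The other anchor, SDHC, gave opposite results with its 2 probes. The brighter probe read 9.01, 9.15 and 9.12 in deprived coculture, 9.48, 9.21 and 9.35 in deprived monoculture and 9.10, 9.04 and 9.13 in complete monoculture. By that probe SDHC rose without glutamine (log2 difference 0.26, SE 0.070, adjusted p = 0.00406) and was lower in coculture than in deprived monoculture (log2 difference -0.25, SE 0.070, adjusted p = 0.011). The dimmer probe read 8.09, 8.10 and 8.04 in deprived coculture, 8.07, 8.03 and 8.0 in deprived monoculture and 8.34, 8.24 and 8.39 in complete monoculture. It fell without glutamine (log2 difference -0.29, SE 0.055, adjusted p = 0.000144 over all named probes), against 0.26, SE 0.071, adjusted p = 0.00621 for the brighter one in the same fit. With the mean of both probes the deprivation difference was -0.015 (adjusted p = 0.83), so no direction is given for the gene. Its coculture call was also lost with that mean (adjusted p = 0.164), without coculture array 1 (0.0604) and without deprived monoculture array 1 (0.0681).

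Malate dehydrogenase makes oxaloacetate from malate, in the cytosol by MDH1 and in the mitochondrion by MDH2. MDH1 read 11.92, 11.89 and 11.94 in deprived coculture, 11.93, 11.88 and 11.88 in deprived monoculture and 12.29, 12.27 and 12.20 in complete monoculture. Deprived cells with or without fibroblasts overlapped and lay below complete medium (-0.36, SE 0.057, adjusted p = 1.96e-05 in monoculture, -0.33, SE 0.057, adjusted p = 7.15e-05 in coculture). MDH2 read 12.55, 12.66 and 12.57 in deprived coculture, 12.43, 12.61 and 12.40 in deprived monoculture and 12.64, 12.76 and 12.67 in complete monoculture. It fell in monoculture without glutamine (log2 difference -0.21, SE 0.064, adjusted p = 0.00763), while coculture overlapped both monocultures (0.12, SE 0.064, adjusted p = 0.203 against deprived and -0.10, SE 0.064, adjusted p = 0.235 against complete monoculture).

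The pyruvate dehydrogenase complex consists of PDHA1 and PDHB, which remove carbon dioxide from pyruvate, the acetyltransferase DLAT, the binding protein PDHX and DLD. Of its 4 own genes, 2 fell without glutamine and 2 were not called, where 54.3% of all genes were called and 24.3% were lower. DLAT read 9.04, 8.97 and 8.87 in deprived coculture, 8.73, 9.0 and 9.08 in deprived monoculture and 9.06, 9.27 and 9.17 in complete monoculture. Its fall in monoculture was small and the groups overlapped (log2 difference -0.23, SE 0.082, adjusted p = 0.0206), and leaving out deprived monoculture array 1 (adjusted p = 0.161) or complete monoculture array 2 (0.11) ended the call. Coculture against complete medium was at the edge of the threshold (log2 difference -0.21, SE 0.082, adjusted p = 0.0457), and that call was lost without any 1 of 5 arrays and under 4 other settings, with adjusted p up to 0.197. PDHX read 9.18, 9.20 and 9.18 in deprived coculture, 9.10, 9.15 and 9.24 in deprived monoculture and 9.25, 9.40 and 9.36 in complete monoculture. It was lower without glutamine (log2 difference -0.17, SE 0.063, adjusted p = 0.0258), a call lost without any 1 of deprived monoculture arrays 1 and 2 and complete monoculture arrays 2 and 3, with adjusted p from 0.0669 to 0.104. In coculture against complete medium it was not called (log2 difference -0.15, SE 0.063, adjusted p = 0.0628). It passed without complete monoculture array 1 (0.0322) and with the filter at 7.98 (0.0471). It also passed with the mean of all probes of each gene (0.0403), with arrays centred on their median (0.0462) and without a variance trend (0.0345).

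The catalytic subunit PDHA1 read 9.80, 9.64 and 9.85 in deprived coculture, 10.08, 9.86 and 9.96 in deprived monoculture and 10.20, 9.94 and 9.94 in complete monoculture. The monocultures overlapped (log2 difference -0.06, SE 0.081, adjusted p = 0.589). Coculture lay below complete medium (log2 difference -0.26, SE 0.081, adjusted p = 0.0126), which was lost without coculture array 2 (adjusted p = 0.0892) or complete monoculture array 1 (0.104). Against deprived monoculture the difference was -0.20 (SE 0.081, adjusted p = 0.0672), and it passed with the replicate number as a block (0.0346), without deprived monoculture array 2 (0.0452) and without complete monoculture array 1 (0.0444). PDHB, its partner, lay between 11.21 and 11.40 on all arrays and was not called in any comparison (adjusted p = 0.306 for deprivation, 0.871 for coculture and 0.474 for coculture against complete medium).

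PDP1 is a phosphatase that switches pyruvate dehydrogenase on. It read 8.35, 8.42 and 8.28 in deprived coculture, 8.68, 8.87 and 8.91 in deprived monoculture and 8.31, 8.60 and 8.38 in complete monoculture. Deprived monoculture lay above the other groups, without overlap, and coculture and complete medium overlapped. PDP1 rose without glutamine (log2 difference 0.40, SE 0.076, adjusted p = 0.000169) and was lower in coculture than in deprived monoculture (log2 difference -0.47, SE 0.076, adjusted p = 8.23e-05), while coculture and complete medium differed by -0.08 (SE 0.076, adjusted p = 0.438). Of the kinases, which inactivate the complex, PDK2 and PDK3 were low but, by their brightest probes, above the floor. PDK2 read 7.63, 7.68 and 7.59 in deprived coculture, 7.73, 7.82 and 7.66 in deprived monoculture and 7.54, 7.58 and 7.61 in complete monoculture. It rose without glutamine by 0.16 on the log2 scale (SE 0.047, adjusted p = 0.00714, and 0.053 without deprived monoculture array 2). In coculture against deprived monoculture it was not called (log2 difference -0.10, SE 0.047, adjusted p = 0.131), with an adjusted p of 0.0476 without deprived monoculture array 3.

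PDK3 read 7.75, 7.76 and 7.66 in deprived coculture, 7.63, 7.75 and 7.68 in deprived monoculture and 7.81, 7.89 and 7.77 in complete monoculture with its brighter probe. It fell without glutamine (log2 difference -0.14, SE 0.050, adjusted p = 0.0234), and the call needed deprived monoculture array 1 (otherwise adjusted p = 0.0968), deprived monoculture array 3 (0.0511) and complete monoculture array 2 (0.115). The dimmer probe read 7.52, 7.55 and 7.49 in deprived coculture, 7.46, 7.59 and 7.58 in deprived monoculture and 8.0, 8.01 and 7.92 in complete monoculture. It fell by more (-0.43, SE 0.050, adjusted p = 7.81e-08 over all named probes), with no overlap between deprived and complete monoculture. It was also lower in coculture than in complete medium (-0.46, SE 0.050, adjusted p = 7.11e-08), where the brighter probe was not called (-0.10, SE 0.050, adjusted p = 0.117). The dimmer probe lay within the floor on deprived monoculture array 1 and close above it on the other deprived arrays. PDK1 was within the floor on 4 arrays and close above it on 5, from 7.38 to 7.56, and PDK4 was at the floor on all 9, from 7.34 to 7.43. At that level a difference is hard to detect.

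The malic enzymes turn malate into pyruvate, ME1 in the cytosol and ME2 and ME3 in the mitochondrion. ME3 read 8.73, 8.71 and 8.80 in deprived coculture, 8.5, 8.54 and 8.46 in deprived monoculture and 8.56, 8.71 and 8.69 in complete monoculture. It was higher in coculture than in deprived monoculture (log2 difference 0.25, SE 0.061, adjusted p = 0.00376) and lower in deprived than in complete monoculture (log2 difference -0.15, SE 0.061, adjusted p = 0.038). The deprivation call was lost without any 1 of deprived monoculture arrays 1 and 3 and complete monoculture arrays 2 and 3, with adjusted p from 0.0621 to 0.133. For ME3 that call was also lost with no filter on dim genes (0.0565) and with only the 6 arrays of the comparison (0.0528). With the mean of its 3 probes, of which the other two lay at the floor, the adjusted p was 0.19 for coculture and 0.16 for deprivation. ME1 read 9.27, 9.16 and 9.11 in deprived coculture, 9.03, 9.12 and 9.20 in deprived monoculture and 9.18, 9.51 and 9.22 in complete monoculture. It was not called in monoculture without glutamine (log2 difference -0.19, SE 0.080, adjusted p = 0.0554), and the adjusted p was 0.0218 without complete monoculture array 1, 0.0421 without complete monoculture array 3 and 0.0295 without deprived monoculture array 3. That value was 0.0459 with the filter at 7.98 and 0.0492 with arrays centred on their median.

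ME2 read 9.08, 8.97 and 9.0 in deprived coculture, 8.95, 8.95 and 9.23 in deprived monoculture and 9.20, 9.19 and 9.15 in complete monoculture with its brighter probe. Deprived monoculture array 3 was higher than its partners, and the difference from complete medium was not called (log2 difference -0.13, SE 0.072, adjusted p = 0.134, and 0.00683 without that array). The dimmer probe had no such array and fell (-0.29, SE 0.065, adjusted p = 0.000813 over all named probes). Coculture against complete medium gave a log2 difference of -0.16, SE 0.072, adjusted p = 0.0849 with the brighter probe, 0.034 without deprived monoculture array 3, and -0.24, SE 0.065, adjusted p = 0.00781 with the dimmer one. Pyruvate carboxylase, PC, which makes oxaloacetate from pyruvate, was below the level needed for the test across genes. Its brightest probe read 7.45, 7.33 and 7.41 in deprived coculture, 7.38, 7.43 and 7.39 in deprived monoculture and 7.48, 7.51 and 7.59 in complete monoculture, so that 6 of 9 arrays were within the floor, and its other 3 probes were at or near the floor. In the fit of single probes the brightest one was lower in deprived than in complete monoculture (log2 difference -0.13, SE 0.039, adjusted p = 0.0144 over all named probes) and in coculture than in complete medium (-0.13, SE 0.039, adjusted p = 0.013), and the other 3 were not called. The 4 probes differed in sign in both comparisons, so no direction is given for the gene. Both deprived groups lay in the floor, where the size of a difference of the brightest probe would be understated.

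Of the 12 genes with several probes, CS, SUCLA2, SDHA and PDK3 fell and PCK2 rose with every probe in monoculture without glutamine. The 3 CS probes gave -0.48, SE 0.064, adjusted p = 7.2e-07, -0.46, SE 0.065, adjusted p = 1.88e-06 and -0.54, SE 0.059, adjusted p = 3.94e-08 over all named probes. In coculture against deprived monoculture all 3 were above 0, and 1 was called (log2 differences 0.21, 0.19 and 0.17). The 2 SUCLA2 probes gave -0.63, SE 0.068, adjusted p = 2.3e-08 and -0.64, SE 0.068, adjusted p = 2.12e-08 for deprivation. For SDHA they gave -0.27, SE 0.065, adjusted p = 0.00162 and -0.39, SE 0.088, adjusted p = 0.00112. IDH1 was not called for deprivation with either probe, and both were lower in coculture than in complete medium (-0.20, SE 0.068, adjusted p = 0.0319 and -0.25, SE 0.071, adjusted p = 0.0092). RefSeq lists pseudogenes named after SDHA, SDHC, SDHD, SUCLA2, SUCLG2, CS, DLST, IDH1, MDH1, ME2, PDHA1 and PDK1, whose RNA, where made, a probe may also bind.

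**Figure D3:**
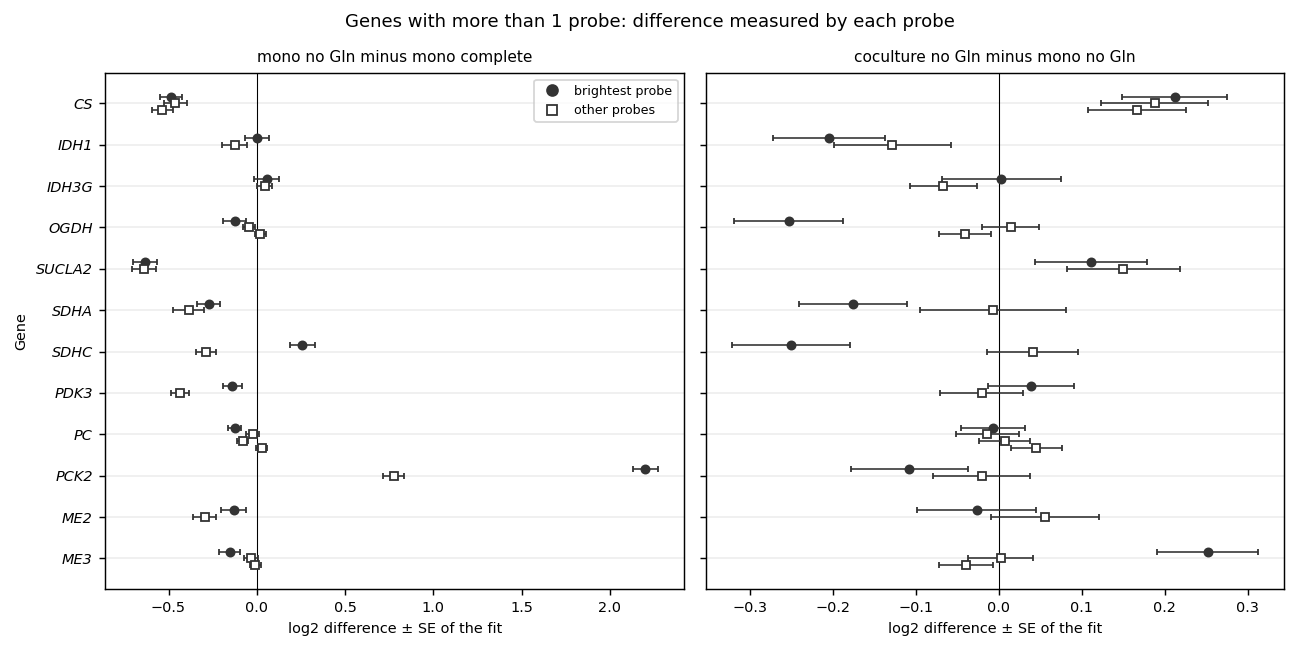
Log2 difference with the SE of the fit for each probe of the 12 genes with more than 1, for deprivation (left) and coculture (right), with the brightest probe filled and the others open. Both panels have their own scale. The 2 SDHC probes stand on opposite sides of 0 in the left panel, at 0.26 and -0.29.

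Neighbouring genes were taken from 3 lists. Of 6 tested cycle accessories out of 8 listed, 2 rose and 2 fell without glutamine (66.7% called, against 54.3% of all genes). In coculture against deprived monoculture 1 was higher and 2 were lower, where 27.8% of all genes were called. SDHAF2, which helps to attach FAD to SDHA, rose (log2 difference 0.98, SE 0.072, adjusted p = 4.44e-10), and SDHAF4, another assembly factor of SDHA, fell (log2 difference -0.77, SE 0.055, adjusted p = 3.34e-10). DHTKD1, of the related 2-oxoadipate dehydrogenase, fell (log2 difference -0.25, SE 0.044, adjusted p = 5.45e-05). In coculture against deprived monoculture, SDHAF2 was lower (-0.57, SE 0.072, adjusted p = 4.52e-06), as was the cytosolic aconitase ACO1 (-0.19, SE 0.069, adjusted p = 0.0446), and SDHAF4 was higher (0.16, SE 0.055, adjusted p = 0.0397). Against complete medium, coculture was called for SDHAF2 (0.40, SE 0.072, adjusted p = 0.000124), SDHAF4 (-0.61, SE 0.055, adjusted p = 2.41e-08) and DHTKD1 (-0.22, SE 0.044, adjusted p = 0.000304). The list's median log2 difference was -0.072 for deprivation, -0.001 for coculture and -0.044 for coculture against complete medium.

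Of 7 tested genes of pyruvate supply out of 10, 3 rose and 4 fell without glutamine, where 30.0% of all genes were higher and 24.3% lower. LDHA, the lactate dehydrogenase subunit, fell, with 13.25 ± 0.03 in deprived and 14.11 ± 0.05 in complete monoculture (SD, n = 3 each; log2 difference -0.86, SE 0.052, adjusted p = 2.24e-11). MPC1, a subunit of the mitochondrial pyruvate carrier, rose (log2 difference 0.85, SE 0.062, adjusted p = 3.34e-10), and its partner MPC2 fell (log2 difference -0.20, SE 0.063, adjusted p = 0.0125). LIAS, which makes the lipoyl group that DLAT and DLST carry, rose (log2 difference 0.72, SE 0.071, adjusted p = 3.58e-08). In coculture against deprived monoculture 0 were higher, also at an unadjusted p under 0.05 (12.7% of all genes were higher and 15.1% lower), and MPC1 (-0.30, SE 0.062, adjusted p = 0.000865) and LIAS (-0.41, SE 0.071, adjusted p = 0.000204) were lower. Against complete medium, coculture was lower for LDHA (-0.89, SE 0.052, adjusted p = 2.91e-11) and LDHB (-0.33, SE 0.060, adjusted p = 0.000127) and higher for MPC1 (0.55, SE 0.062, adjusted p = 4.53e-07). The list's median log2 difference was -0.196 for deprivation, -0.051 for coculture and -0.181 for coculture against complete medium.

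Of 13 tested genes of anaplerosis, export and carriers out of 16, 2 rose and 8 fell without glutamine, and 3 were higher and 1 lower in coculture than in deprived monoculture. Among all genes 30.0% rose and 24.3% fell without glutamine, and 27.8% were called for coculture, against 30.8% of these 13. GOT1, the cytosolic aspartate aminotransferase, read 11.10, 10.97 and 11.10 in deprived coculture, 11.82, 11.90 and 11.87 in deprived monoculture and 10.42, 10.37 and 10.29 in complete monoculture. It rose without glutamine (log2 difference 1.5, SE 0.063, adjusted p = 6.06e-14) and was lower in coculture than in deprived monoculture (log2 difference -0.80, SE 0.063, adjusted p = 7.86e-09), while remaining above complete medium (log2 difference 0.70, SE 0.063, adjusted p = 2.31e-08). The mitochondrial carriers SLC25A13, for aspartate and glutamate, and SLC25A1, for citrate, fell without glutamine (-0.60, SE 0.060, adjusted p = 4.91e-08 and -0.62, SE 0.068, adjusted p = 1.4e-07). Both were also lower in coculture than in complete medium (-0.55, SE 0.060, adjusted p = 3.4e-07 and -0.53, SE 0.068, adjusted p = 2.43e-06). The dicarboxylate carrier SLC25A10 and MCEE, an enzyme of the propionate route into the cycle, were higher in coculture than in deprived monoculture (0.31, SE 0.060, adjusted p = 0.000514 and 0.26, SE 0.060, adjusted p = 0.00245). The list's median log2 difference was -0.293 for deprivation, 0.05 for coculture and -0.068 for coculture against complete medium.

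**Figure D4:**
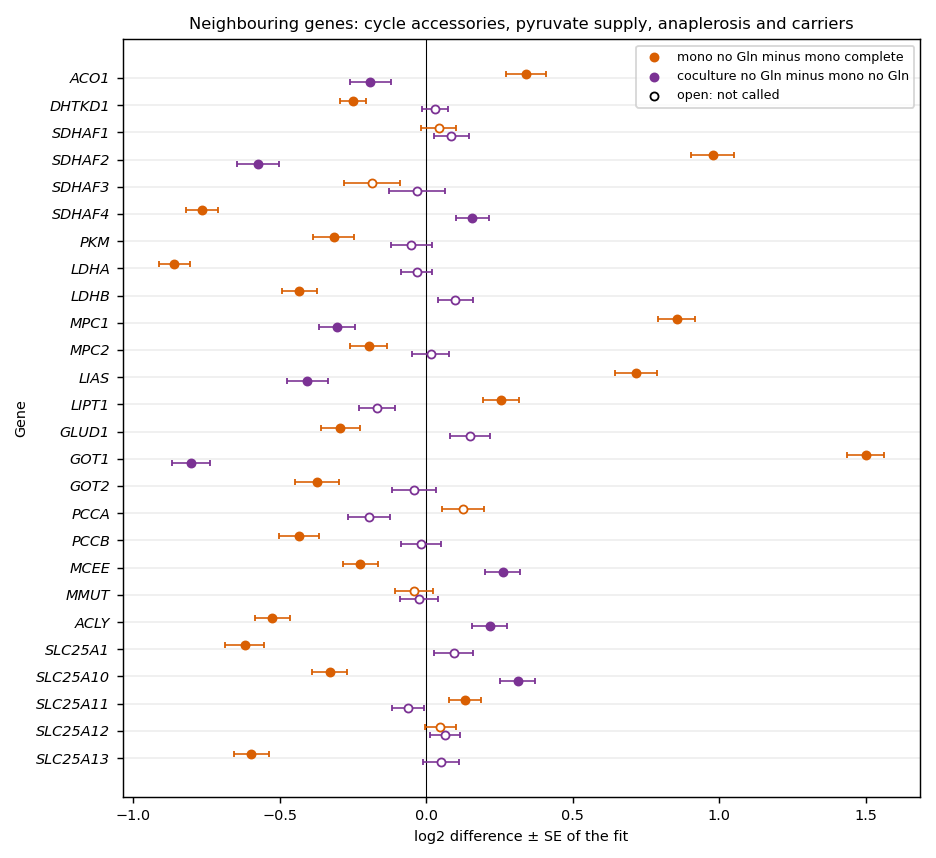
Log2 difference with the SE of the fit for the tested neighbouring genes, for deprivation (orange) and for coculture against deprived monoculture (purple), with filled points for called genes. GOT1 has the difference farthest from 0 in each comparison, at 1.5 and -0.80. Both comparisons use the deprived monoculture arrays.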

How the data were processed

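RNA of 9 samples had been profiled on Illumina bead arrays. The table holds log2-like values as deposited, 1 for each of 34476 probes on each array. The submitters' processing notes name lumi. Its version, the background correction and the kind of log were not given in the sources used here. Array medians were nearly equal in the table as deposited. Precision is limited by having 3 arrays in a group.

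Of the probes, 26366 had 1 gene symbol in the platform annotation, 3 had several and 8107 had none. Each gene took the values of its probe with the highest mean and was tested where that mean exceeded 7.46, the median over all probes. Software was limma 3.58.1 under R 4.3.3. Functions lmFit and eBayes with a variance trend fitted a mean for each group to 10862 genes (6 residual and 13.3 prior degrees of freedom). Two-sided p-values were adjusted by Benjamini-Hochberg over all of these, and an adjusted p under 0.05 counted as called. Single probes were fitted likewise over the 26366 named probes, a step added after the values were seen. The floor's upper edge is the 1st percentile of all values mirrored about their mode. The fit was tested on simulated data. Alternatives were the replicate number as a block, other filters, scalings, probe rules and variance priors, fits of 6 arrays, a fold condition, and leaving out each array. The genes and the neighbour and marker lists were chosen with earlier results of these data known. Every listed gene was named, with up to 3 called genes per neighbour list and comparison by rule. MPC2 was named after its values were seen.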

Additional observations from a re-analysis of the deposited data

How the results depend on the processing

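The counts of called genes changed by more than 1.5 times under few settings. With a fold of at least 1.5 as well, 4 genes were called for deprivation, 0 for coculture and 1 for coculture against complete medium, since most called differences are smaller. With the mean of all probes of a gene, 6 genes in place of 10 were called for coculture, and the deprivation difference of SDHC was -0.015, with the opposite sign to its brightest probe. Leaving out 1 array at a time gave 15 to 20 called genes for deprivation, 7 to 11 for coculture and 11 to 15 for coculture against complete medium. With the replicate number as a block the counts were 19, 10 and 14, of which 19, 9 and 14 were also called without it. Same-numbered arrays did not deviate together in every pair (r from -0.235 to 0.02 for deprivation, -0.259 to 0.101 for coculture and 0.015 to 0.213 for coculture against complete medium), so the numbers were not taken as pairs. Under every alternative run at the adjusted p threshold, 13 of 19 called genes kept their call for deprivation, 4 of 10 for coculture (CS, IDH3B, PDP1 and SUCLG2) and 11 of 14 for coculture against complete medium. IDH2, counted among the 13 and the 11, was too dim to be tested under the stricter filter, as were PDK1, PDK2 and PDK3. Of 1416 single values, 48 lost and 22 gained a call and 1 reversed; 35 uncalled ones changed sign. No setting moved the median of all tested genes by more than 0.036 on the log2 scale. Signal near the floor limits IDH2, PDK1, PDK4, PC and the dimmer PDK3 probe.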
